A study of Mus musculus with 8 samples.

Results

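The 10 genes described here belong to the hypoxia-inducible factor (HIF) pathway: Hif1a, Egln1, Egln2, Egln3, Vhl, Vegfa, Bnip3, Slc2a1, Pfkfb3 and Pdk1. They were chosen by name, with earlier results of these data known. Each symbol was found once among the 55414 gene identifiers of the count table, and all 10 were among the 16304 genes tested. Messenger RNA was sequenced from iBMDM cells, immortalized wild-type mouse macrophages of bone marrow origin, in 8 libraries forming 4 groups of 2. The groups were disulfiram (DSF) followed by lipopolysaccharide (DSF+LPS), DSF alone, LPS alone, and control. DSF was given at 5 μM for 0.5 h before 1 μg/ml LPS for 4 h, and cells without an agent received its vehicle, DMSO or water. DSF is a drug against alcohol dependence, LPS is the bacterial cell wall component that activates the receptor TLR4, and the study asked whether the drug blocks that activation. All groups are 1 immortalized line, and the labels do not say whether the libraries of a group came from separate cultures, so the p-values speak only of the spread among these libraries, which may be technical.

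HIF-1α, the protein encoded by Hif1a, is made continuously and destroyed while oxygen is present. Prolyl hydroxylases encoded by Egln1, Egln2 and Egln3 mark it in an oxygen-dependent reaction, and the protein encoded by Vhl then directs it to the proteasome. When hydroxylation stops, HIF-1α pairs with the protein encoded by Arnt and raises genes of glucose uptake, glycolysis, angiogenesis and mitochondrial turnover. In macrophages the pathway is also known for its part in the glycolytic shift that follows activation. The measurements here are of messenger RNA and not of HIF-1α protein.

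Library totals ran from 17822041 to 21694922 counts. More genes had at least 1 count in the 4 libraries with DSF (23416 to 25081) than in the 4 without (19779 to 20324), and the part of this difference in the results was not tested. All 10 macrophage markers, among them Adgre1, Csf1r and Cd68, had counts in every library and summed to between 2269 and 3227 CPM. Their sums were 2446 and 2563 CPM with DSF+LPS, 2269 and 2382 CPM with DSF, 3227 and 3127 CPM with LPS, and 2674 and 2730 CPM in control. By the edgeR test used below, 6 of these markers rose and none fell in LPS against control, where 29.0% of all genes were called. In DSF against control 3 rose and 5 fell (58.1% of all genes called), in DSF+LPS against LPS 2 rose and 7 fell (65.3%), and in DSF+LPS against DSF 3 rose and none fell (12.1%). Their part in the results was not tested. Markers of neutrophils, dendritic cells, lymphocytes and fibroblasts summed to at most 2.77 CPM in any library, and epithelial and endothelial markers to at most 13.9 CPM. CPM is a library's counts scaled to a common total after TMM scaling, except in the marker sums above. Those sums used plain library totals without TMM, whereas the marker calls used TMM scaling. In RNA from whole cultures, fewer cells that express a gene and less of its RNA per cell cannot be told apart.

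LPS alone raised Hif1a and the glucose genes Slc2a1 and Pfkfb3 and lowered Egln1, Egln3, Vegfa, Bnip3 and Pdk1. DSF alone lowered Hif1a, Egln1, Bnip3 and Pdk1, while Slc2a1, Pfkfb3 and Vegfa rose by about the same factor of 3.06 to 3.69. With both agents Hif1a stood at 0.304 of its level with LPS, and Vegfa at 5.86 times its own. The words rose and fell are kept for genes where edgeR's quasi-likelihood test, adjusted by Benjamini-Hochberg over all genes tested, gave a p under 0.05. By that rule 8 of the 10 genes were called for LPS against control, 3 up and 5 down, where 29.0% of all genes were called (15.2% up and 13.8% down). For DSF against control 7 were called, 3 up and 4 down, beside 58.1% of all genes (31.0% up and 27.1% down). For DSF+LPS against LPS 6 were called, 3 up and 3 down, beside 65.3% of all genes (33.7% up and 31.6% down), so that the share among the 10 was close to the background. For DSF+LPS against DSF 2 were called, both down, beside 12.1% of all genes (5.53% up and 6.53% down). The comparisons share libraries (LPS against control and DSF+LPS against LPS both use the LPS libraries), so their values are not independent. They are given side by side. Outside the interaction described below, likeness or opposition of direction between comparisons or genes was not tested.

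**Figure D1:**
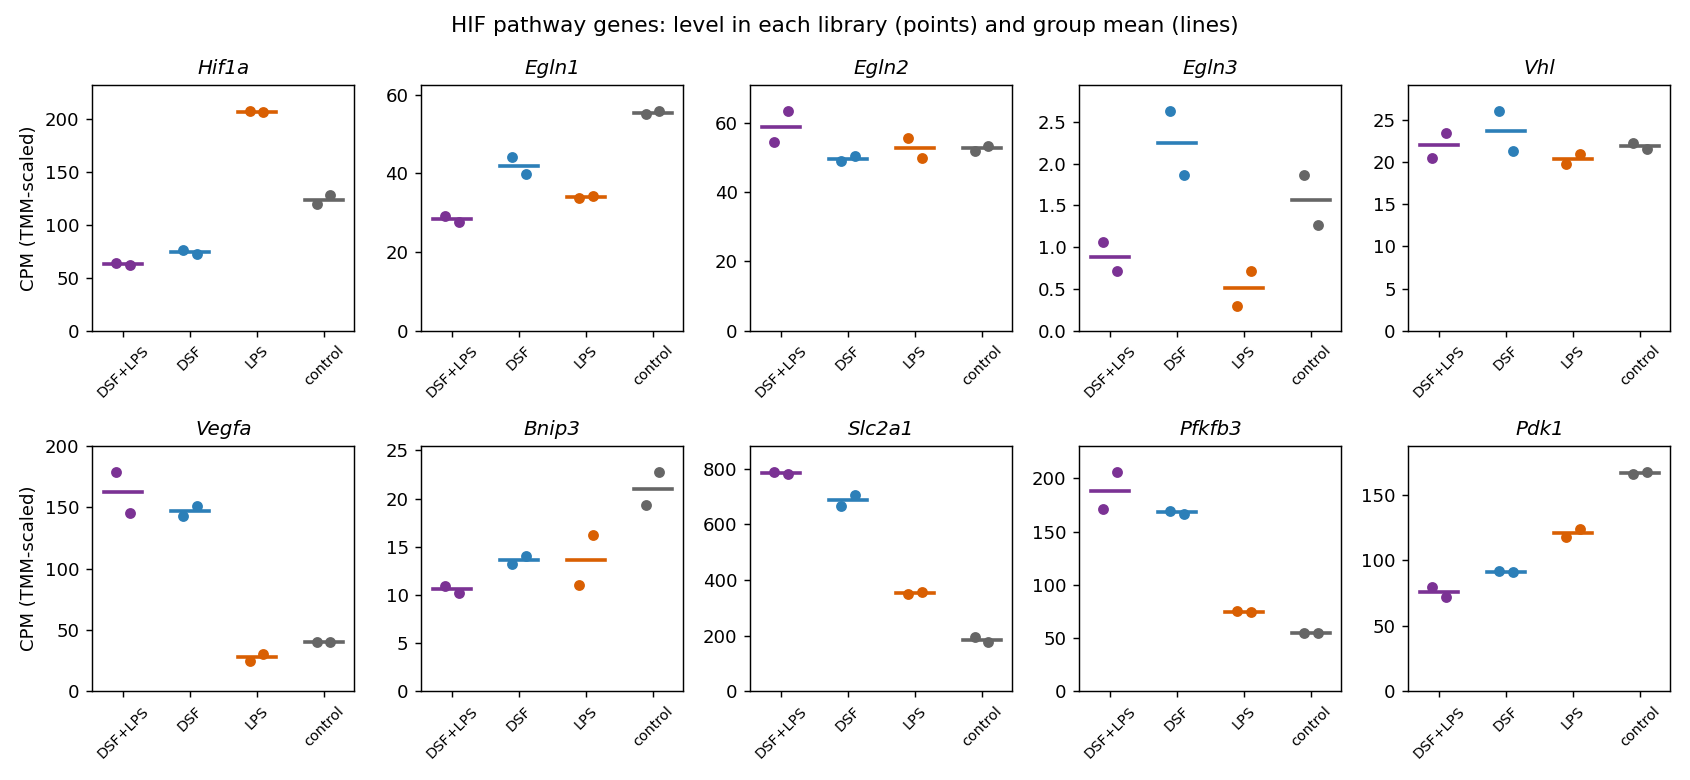
Level of each of the 10 genes in CPM (vertical axes, from 0, different in each panel) in the 2 libraries of each group; points are libraries and lines are group means. Hif1a is highest in both LPS libraries (208 and 207 CPM) and lowest in both DSF+LPS libraries (63.9 and 62.1 CPM), whereas Slc2a1 is highest with DSF+LPS (788 and 782 CPM) and lowest in control (195 and 177 CPM).

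Hypoxia response elements are the sites bound by HIF. Promoters are shown for 4 of the 9 genes that held the core letters of such an element. The sequences are RefSeq's, 250 bases up to the transcription start, 5′ to 3′, and capitals mark each match to ACGTG or GCGTG on either strand (CACGT or CACGC where the match is on the other strand). Pdk1 has another RefSeq start that is not shown, and the 250 bases before it held no match.
Hif1a, GRCm38.p6 chr12:73907617-73907866, plus strand: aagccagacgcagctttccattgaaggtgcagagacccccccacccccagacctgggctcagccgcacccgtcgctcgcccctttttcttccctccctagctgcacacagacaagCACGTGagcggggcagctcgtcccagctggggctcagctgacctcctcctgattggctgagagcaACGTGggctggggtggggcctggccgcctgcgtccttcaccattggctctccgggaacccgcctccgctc
Slc2a1, GRCm38.p6 chr4:119108495-119108744, plus strand: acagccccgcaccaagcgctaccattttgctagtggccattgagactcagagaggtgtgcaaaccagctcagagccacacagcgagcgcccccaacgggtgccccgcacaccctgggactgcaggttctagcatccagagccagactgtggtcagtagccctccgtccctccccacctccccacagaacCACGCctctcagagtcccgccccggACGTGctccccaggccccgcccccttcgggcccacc
Bnip3, GRCm38.p6 chr7:138909507-138909756, minus strand: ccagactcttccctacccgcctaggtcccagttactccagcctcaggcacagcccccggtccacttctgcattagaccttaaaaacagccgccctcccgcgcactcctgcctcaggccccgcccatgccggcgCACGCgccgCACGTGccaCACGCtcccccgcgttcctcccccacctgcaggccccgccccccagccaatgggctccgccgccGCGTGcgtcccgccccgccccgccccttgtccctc
Pdk1, GRCm38.p6 chr2:71872974-71873223, plus strand: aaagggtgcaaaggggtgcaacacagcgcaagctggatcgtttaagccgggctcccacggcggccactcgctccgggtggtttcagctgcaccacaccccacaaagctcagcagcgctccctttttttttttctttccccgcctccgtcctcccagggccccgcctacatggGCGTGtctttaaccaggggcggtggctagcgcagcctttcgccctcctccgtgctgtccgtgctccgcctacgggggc
The Hif1a window held 3 matches, Slc2a1 2, Bnip3 5 and Pdk1 1, counting overlapping matches separately, so that CACGTG counts once on each strand. Of the 10 genes, 9 had a match before at least 1 of their RefSeq starts, the exception being Vhl, and 41.5% of 27025 genes with a promoter in the same table had one (38.6% of 32851 promoters). The first of the 2 Vegfa starts had none within 250 bases and the second had 2, so Vegfa counts by its second start alone. GC content of the windows of the 10 genes ran from 38.4% (the Pdk1 start not shown) to 86.0% (Egln1). The shares over all genes and promoters were not matched for GC content. No window of the 10 genes held the antioxidant response element core TGACNNNGC, the heat shock element core GAANNTTC or the AP-1 site TGANTCA, which were found in 10.2%, 6.69% and 6.75% of all promoters. A match is a description of letters in this window and was not tested against the expression values. The Hif1a window matched only ACGTG, the Pdk1 window only GCGTG, and the Slc2a1 and Bnip3 windows both patterns.

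Hif1a, the gene of the oxygen-regulated subunit, had 63.9 and 62.1 CPM in the DSF+LPS libraries, 76.5 and 72.2 CPM with DSF, 208 and 207 CPM with LPS, and 119 and 129 CPM in control. No 2 of the 4 groups overlapped. LPS raised it 1.67-fold (log2 fold change 0.74, SE 0.07, adjusted p = 1.35e-06). DSF alone lowered it to 0.600 of control (log2 fold change -0.74, SE 0.07, adjusted p = 8.99e-07). With DSF given before LPS, it fell by 1.72 on the log2 scale relative to LPS alone (SE 0.08, adjusted p = 8.11e-11). Between DSF+LPS and DSF the difference was -0.24 (95% interval -0.40 to -0.08, adjusted p = 0.0527), which missed the threshold; it was called without DSF+LPS replicate 1 (-0.27, adjusted p = 0.0447) and with library size alone (-0.35, adjusted p = 0.00765). The log2 LPS response of Hif1a was 0.74 without the drug and -0.24 with it. The interaction subtracts the response without DSF from the response with it, and for Hif1a it was -0.98 (SE 0.10, adjusted p = 9.37e-06). The antisense gene Gm15283, whose exons overlap those of Hif1a, had 3 to 13 counts in a library, against 1138 to 4330 counts of Hif1a.

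Egln1 encodes PHD2, the main oxygen sensor of the 3 prolyl hydroxylases. It had 29.3 and 27.7 CPM with DSF+LPS, 44.1 and 39.8 CPM with DSF, 33.7 and 34.3 CPM with LPS, and 55.1 and 55.8 CPM in control. Both control libraries were above all others and both DSF+LPS libraries below all others. LPS lowered it to 0.614 of control (log2 fold change -0.70, SE 0.09, adjusted p = 2.54e-05) and DSF to 0.756 (-0.40, SE 0.09, adjusted p = 0.00140). In DSF-treated cells LPS lowered it to 0.679 of DSF alone (-0.56, SE 0.09, adjusted p = 0.00199), and the interaction was 0.15 (95% interval -0.13 to 0.43, adjusted p = 0.496), which did not pass. Relative to LPS alone, DSF+LPS was lower by -0.26 (adjusted p = 0.0269), and that call was lost without DSF+LPS replicate 2, LPS replicate 1 or LPS replicate 2 (-0.20, -0.28 and -0.25; adjusted p = 0.123, 0.0723 and 0.102). It was also lost with RLE factors (adjusted p = 0.0502), without a filter on low counts (0.0530), with only the groups compared (0.103) and with DESeq2 (0.0925).

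Egln2, which encodes PHD1, had 54.6 and 63.4 CPM with DSF+LPS, 48.9 and 50.5 CPM with DSF, 55.8 and 49.8 CPM with LPS, and 52.0 and 53.3 CPM in control. The LPS and control libraries interleaved, and the gene passed no test. The log2 fold change had a 95% interval of -0.20 to 0.21 for LPS against control and -0.29 to 0.12 for DSF against control. For DSF+LPS against DSF, whose libraries did not overlap, Egln2 gave 0.25 (95% interval 0.04 to 0.45, adjusted p = 0.109). Without DSF+LPS replicate 1 it was called for DSF+LPS against LPS (0.25, adjusted p = 0.0305) and against DSF (0.34, adjusted p = 0.0198). Cyp2t4, whose exons overlap those of Egln2 on the other strand, had 1 to 31 counts, and the handling of strand is not given in the sources used here.

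Egln3 encodes PHD3, the prolyl hydroxylase gene most strongly induced by HIF itself, and it was scarce in these cells. It had 1.06 and 0.709 CPM with DSF+LPS (21 and 13 counts), 2.63 and 1.86 CPM with DSF (58 and 36 counts), 0.295 and 0.717 CPM with LPS (6 and 15 counts), and 1.86 and 1.26 CPM in control (36 and 29 counts). The LPS libraries lay below the control libraries, while the DSF and control libraries overlapped at 1.86 CPM. LPS lowered it to 0.330 of control (log2 fold change -1.60, SE 0.49, adjusted p = 0.0224), a call lost without LPS replicate 1 (-1.11, adjusted p = 0.194) or control replicate 1 (-1.31, adjusted p = 0.155). In DSF-treated cells the LPS difference was -1.34 (95% interval -2.28 to -0.39, adjusted p = 0.0650), and it was called with library size alone (-1.44, adjusted p = 0.0400) and without a filter on low counts (-1.33, adjusted p = 0.0194). Neither DSF against control (95% interval -0.35 to 1.41) nor DSF+LPS against LPS (-0.33 to 1.93) passed.

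Per kb of exon, the level of Egln2 was 21.1, 17.8, 18.9 and 18.8 CPM per kb in DSF+LPS, DSF, LPS and control. That of Egln1 was 7.93, 11.7, 9.47 and 15.4, and that of Egln3 0.332, 0.842, 0.190 and 0.587. The order Egln2, Egln1, Egln3 held in every group without overlap between libraries of neighbouring genes. The 2 genes Egln2 and Egln1 lay closest together in control and furthest apart with DSF+LPS.

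**Figure D2:**
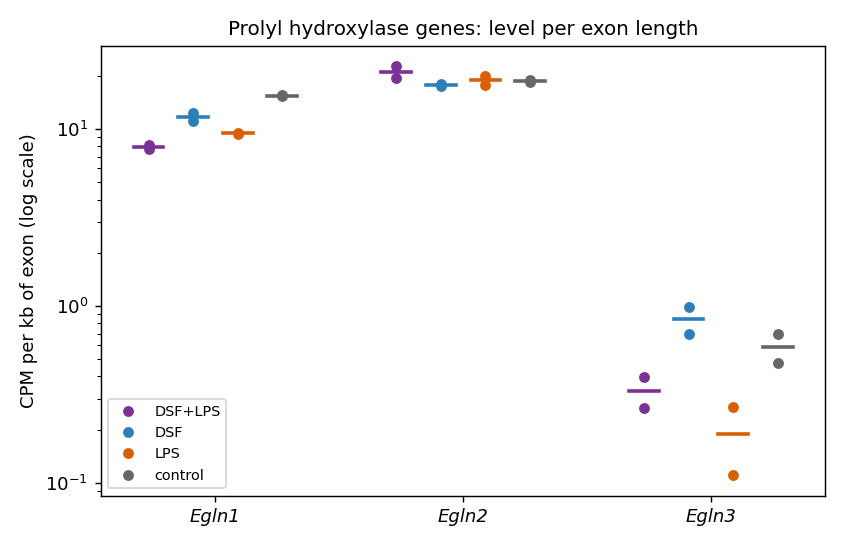
Level of the prolyl hydroxylase genes in CPM per kb of exon (vertical axis, log scale) in the 2 libraries of each group (points; lines are means). Egln2 lies above Egln1 in every group and Egln3 stays under 1 CPM per kb throughout.

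Vhl, the gene of the ubiquitin ligase subunit that recognizes hydroxylated HIF-1α, had 20.5 and 23.4 CPM with DSF+LPS, 26.0 and 21.3 CPM with DSF, 19.8 and 20.9 CPM with LPS, and 22.3 and 21.5 CPM in control. Its 8 values spanned 19.8 to 26.0 CPM, and the groups overlapped except that both LPS libraries lay below both control libraries and both DSF libraries. It passed no test, and the 95% interval of the log2 fold change was -0.37 to 0.16 for LPS against control and -0.15 to 0.38 for DSF against control.

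Slc2a1 encodes GLUT1, the glucose transporter that carries most glucose into activated macrophages. It had 788 and 782 CPM with DSF+LPS, 666 and 706 CPM with DSF, 351 and 357 CPM with LPS, and 195 and 177 CPM in control, and no 2 groups overlapped. LPS raised it 1.90-fold (log2 fold change 0.93, SE 0.07, adjusted p = 4.30e-08) and DSF 3.69-fold (1.88, SE 0.07, adjusted p = 1.82e-11). DSF+LPS stood 2.22-fold above LPS alone (1.15, SE 0.07, adjusted p = 1.39e-09). On top of DSF, LPS added 0.19 on the log2 scale (95% interval 0.06 to 0.33, adjusted p = 0.0649), which missed the threshold and passed it with RLE factors (0.21, adjusted p = 0.0491), with DESeq2 (0.21, adjusted p = 0.0266), without a filter on low counts (0.20, adjusted p = 0.0418) and without DSF+LPS replicate 2 (0.23, adjusted p = 0.0474). The interaction was -0.73 (SE 0.09, adjusted p = 4.66e-05).

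Pfkfb3 encodes the kinase that makes fructose-2,6-bisphosphate, the activator of glycolytic flux at phosphofructokinase. Its values were 171 and 206 CPM with DSF+LPS, 170 and 167 CPM with DSF, 75.2 and 74.3 CPM with LPS, and 54.9 and 55.1 CPM in control. All 4 libraries with DSF lay above the 4 without. LPS raised it 1.36-fold (log2 fold change 0.44, SE 0.09, adjusted p = 0.00131), DSF raised it 3.06-fold (1.61, SE 0.09, adjusted p = 1.50e-09), and DSF+LPS was 2.52-fold above LPS alone (1.33, SE 0.09, adjusted p = 5.89e-09). DSF+LPS against DSF gave 0.16 (95% interval -0.02 to 0.34, adjusted p = 0.230), and 0.28 without DSF+LPS replicate 1 (adjusted p = 0.0152). The interaction of -0.28 did not pass (adjusted p = 0.129), and was -0.37 without DSF+LPS replicate 2 (adjusted p = 0.0121).

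Pdk1, whose product phosphorylates pyruvate dehydrogenase and so holds pyruvate back from the mitochondria, is a HIF target like Slc2a1 but moved the other way. It had 79.9 and 71.9 CPM with DSF+LPS, 92.1 and 90.8 CPM with DSF, 118 and 124 CPM with LPS, and 165 and 167 CPM in control. The groups did not overlap, and control was highest. LPS lowered it to 0.727 of control (log2 fold change -0.46, SE 0.07, adjusted p = 0.000222) and DSF to 0.550 (-0.86, SE 0.08, adjusted p = 2.04e-07). DSF+LPS stood at 0.628 of LPS (-0.67, SE 0.08, adjusted p = 2.27e-06). Relative to DSF it fell by 0.27 on the log2 scale (SE 0.08, adjusted p = 0.0348), a call that held without DSF+LPS replicate 1 (-0.35, adjusted p = 0.00697). It was lost when any other single library was left out (adjusted p from 0.0585 without LPS replicate 1 to 0.239 without DSF replicate 1), with RLE factors (adjusted p = 0.0574) or with only the groups compared (adjusted p = 0.152).

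Vegfa, which encodes the angiogenic growth factor VEGF-A, showed opposite directions with the 2 agents. It had 179 and 146 CPM with DSF+LPS, 143 and 151 CPM with DSF, 24.9 and 30.5 CPM with LPS, and 40.0 and 40.6 CPM in control. DSF+LPS and DSF libraries overlapped, and both were far above LPS and control. LPS lowered it to 0.687 of control (log2 fold change -0.54, SE 0.11, adjusted p = 0.00199). DSF raised it 3.64-fold (1.86, SE 0.11, adjusted p = 2.86e-09), and DSF+LPS was 5.86-fold above LPS (2.55, SE 0.11, adjusted p = 8.70e-11). Against DSF, DSF+LPS gave 0.14 (95% interval -0.07 to 0.36, adjusted p = 0.403), with 0.31 without DSF+LPS replicate 2 (adjusted p = 0.0300) and -0.02 without DSF+LPS replicate 1. The interaction was 0.69 (SE 0.15, adjusted p = 0.00519).

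Bnip3 encodes a mitochondrial outer membrane protein that recruits the autophagy machinery to mitochondria. It had 10.9 and 10.3 CPM with DSF+LPS, 13.2 and 14.05 CPM with DSF, 11.05 and 16.2 CPM with LPS, and 19.3 and 22.8 CPM in control. Both control libraries lay above all others, and the LPS libraries were the most spread. LPS lowered it to 0.648 of control (log2 fold change -0.63, SE 0.16, adjusted p = 0.00861), a call lost without LPS replicate 1 (-0.38, adjusted p = 0.145) or control replicate 2 (-0.51, adjusted p = 0.110). DSF lowered it to 0.646 of control (-0.63, SE 0.16, adjusted p = 0.00397), and the value was -0.52 without control replicate 2 (adjusted p = 0.0525). DSF+LPS against LPS gave -0.37 (adjusted p = 0.0742), and was called without LPS replicate 1 (-0.63, adjusted p = 0.00676), with library size alone (-0.42, adjusted p = 0.0478) and without a filter on low counts (-0.38, adjusted p = 0.0487).

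**Figure D3:**
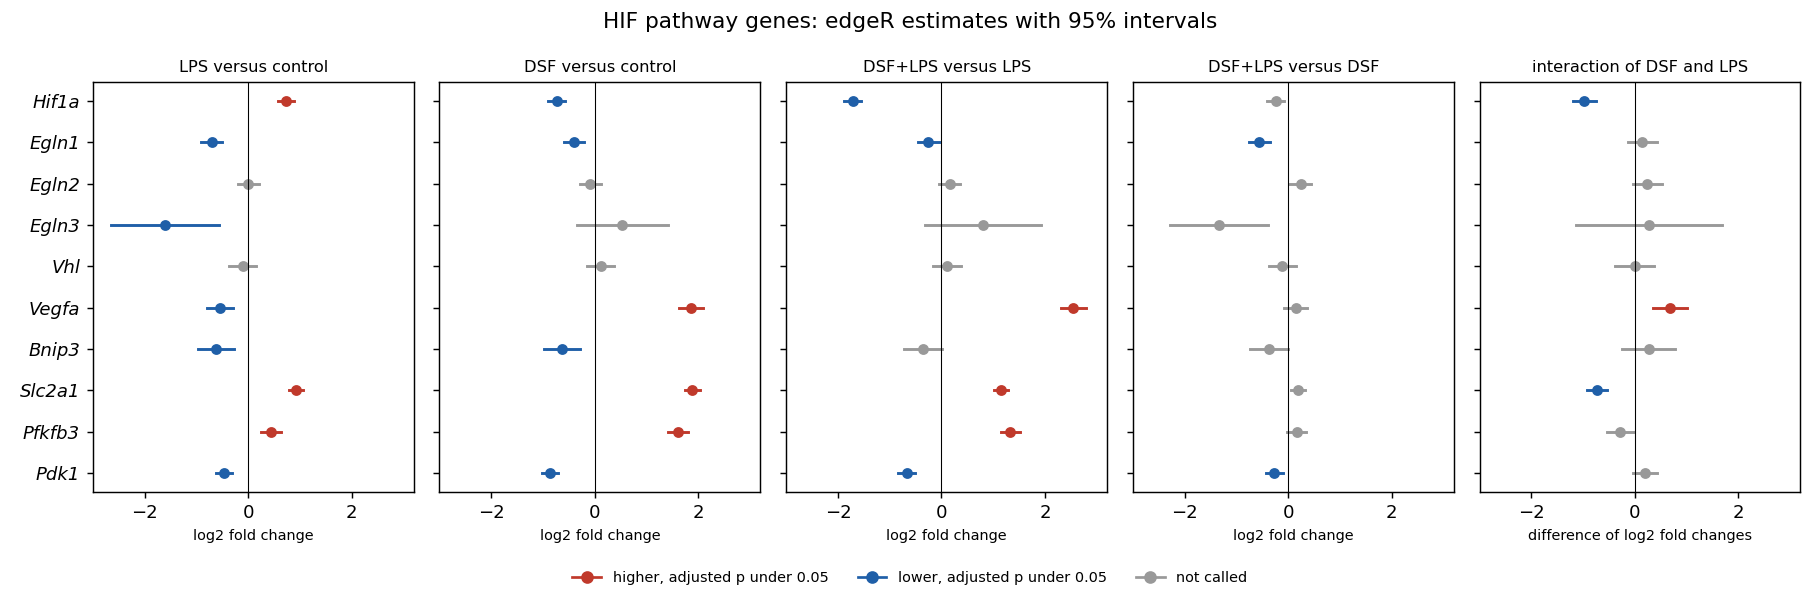
Log2 fold change of the 10 genes (points) with 95% intervals (lines) in each comparison, from edgeR; the last panel shows the LPS response with DSF minus that without. Hif1a lies right of 0 for LPS (0.74) and left of 0 for DSF (-0.74) and DSF+LPS against LPS (-1.72), while Vegfa, Slc2a1 and Pfkfb3 lie right of 0 in both comparisons that add DSF.

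The interaction was called for 3 of the 10 genes, Hif1a and Slc2a1 with a negative and Vegfa with a positive value, where 19.7% of all genes were called (7.58% positive and 12.2% negative). For the other 7 genes the interaction ranged from -0.28 for Pfkfb3 to 0.27 for Egln3, and the interval for Egln3 was -1.15 to 1.68. Without DSF+LPS replicate 2 the number called was 5, with Pfkfb3 and Pdk1 added. Across the 10 genes the median log2 fold change was -0.28 for LPS against control, 0.01 for DSF against control, 0.13 for DSF+LPS against LPS and -0.17 for DSF+LPS against DSF. Over all genes tested these medians were 0.02, 0.05, 0.04 and -0.003. When libraries were scaled by their size only, the all-gene median shifted by -0.16 for LPS against control, by -0.10 for DSF against control and by -0.11 for DSF+LPS against DSF. The upward share of calls was then 30.0% in place of 52.5% for LPS against control, and 17.5% in place of 45.8% for DSF+LPS against DSF. The 3 rises and 5 falls of the 10 genes with LPS and the 3 rises and 4 falls with DSF were the same in number under that scaling.

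Among the other subunits, cofactors and degradation factors of the pathway (18 listed, 17 tested), LPS raised 3 and lowered none, DSF raised 10 and lowered 2, DSF+LPS against LPS raised 9 and lowered 4, and DSF+LPS against DSF raised 3 and lowered 1. Their median log2 fold changes were 0.14, 0.42, 0.59 and 0.16 in that order. Beside these counts, 29.0% of all genes were called for LPS (15.2% up and 13.8% down) and 58.1% for DSF (31.0% and 27.1%). For DSF+LPS against LPS it was 65.3% of all genes (33.7% and 31.6%), and against DSF 12.1% (5.53% and 6.53%). Epas1, which encodes the related subunit HIF-2α, had 10.4 ± 1.7 CPM with DSF+LPS, 8.36 ± 0.21 CPM with DSF, 2.62 ± 0.32 CPM with LPS and 3.82 ± 0.64 CPM in control (SD, n = 2). It rose with DSF (log2 fold change 1.124, adjusted p = 0.000213) and stood 1.99 above LPS with both agents (adjusted p = 9.23e-07), against the direction of Hif1a. Arnt, the common partner subunit, fell with DSF (-0.58, adjusted p = 0.000439) and with DSF+LPS against LPS (-0.48, adjusted p = 0.00154). Arnt2, also in this list, had 22 and 34 counts in control. It rose with LPS (1.53, adjusted p = 0.00109) and with DSF (1.89, adjusted p = 6.11e-05). Cul2, the scaffold of the VHL ubiquitin ligase, had 23.4 ± 0.74 CPM with DSF+LPS, 33.2 ± 1.7 CPM with DSF, 74.2 ± 1.8 CPM with LPS and 64.0 ± 0.51 CPM in control (SD, n = 2), and fell with DSF (-0.95, adjusted p = 3.03e-07). Siah2, a ubiquitin ligase gene whose product degrades prolyl hydroxylases, rose with DSF (1.26, adjusted p = 5.39e-08). Cited2, an inhibitor of HIF that competes for the coactivator p300, rose with LPS (1.38, adjusted p = 3.98e-09) to 185 ± 1.3 CPM, against 71.3 ± 0.98 CPM in control (SD, n = 2).

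Among 37 other HIF targets (34 tested), LPS raised 2 and lowered 10, DSF raised 15 and lowered 6, DSF+LPS against LPS raised 17 and lowered 6, and DSF+LPS against DSF raised 3 and lowered 3. Their median log2 fold changes were -0.13, 0.12, 0.35 and -0.03 in that order. Over all genes tested, LPS raised 15.2% and lowered 13.8%, and DSF raised 31.0% and lowered 27.1%. The all-gene shares were 33.7% up and 31.6% down for DSF+LPS against LPS, and 5.53% up and 6.53% down for DSF+LPS against DSF. Hk2, hexokinase 2, ran with Hif1a in direction: it had 101 ± 8.3 CPM with DSF+LPS, 102 ± 8.2 CPM with DSF, 379 ± 3.7 CPM with LPS and 204 ± 1.4 CPM in control (SD, n = 2). It rose with LPS (0.90, adjusted p = 2.98e-07), fell with DSF (-0.996, adjusted p = 6.48e-08) and fell with DSF+LPS against LPS (-1.91, adjusted p = 4.42e-11). Ddit4, the mTORC1 inhibitor REDD1, ran with Vegfa: it had 110 ± 30 CPM with DSF+LPS, 91.8 ± 16 CPM with DSF, 5.00 ± 0.78 CPM with LPS and 22.2 ± 0.37 CPM in control (SD, n = 2). It fell with LPS (-2.15, adjusted p = 1.30e-06) and rose with DSF+LPS against LPS (4.46, adjusted p = 9.55e-11). Adm, the gene of the vasodilator peptide adrenomedullin, had 423 and 198 counts in the DSF+LPS libraries, 225 and 212 counts in the DSF libraries, 5 and 9 counts in the LPS libraries and 53 and 43 counts in control. It stood 5.55 above LPS with both agents (adjusted p = 2.14e-08). Ndrg1 rose with DSF (2.69, adjusted p = 9.56e-11) to 430 ± 32 CPM, against 66.6 ± 7.9 CPM in control (SD, n = 2). Ak4, a mitochondrial adenylate kinase, fell with DSF (-1.49, adjusted p = 8.06e-09), as did the lactate exporter gene Slc16a3 with DSF+LPS against LPS (-0.77, adjusted p = 1.37e-07).

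**Figure D4:**
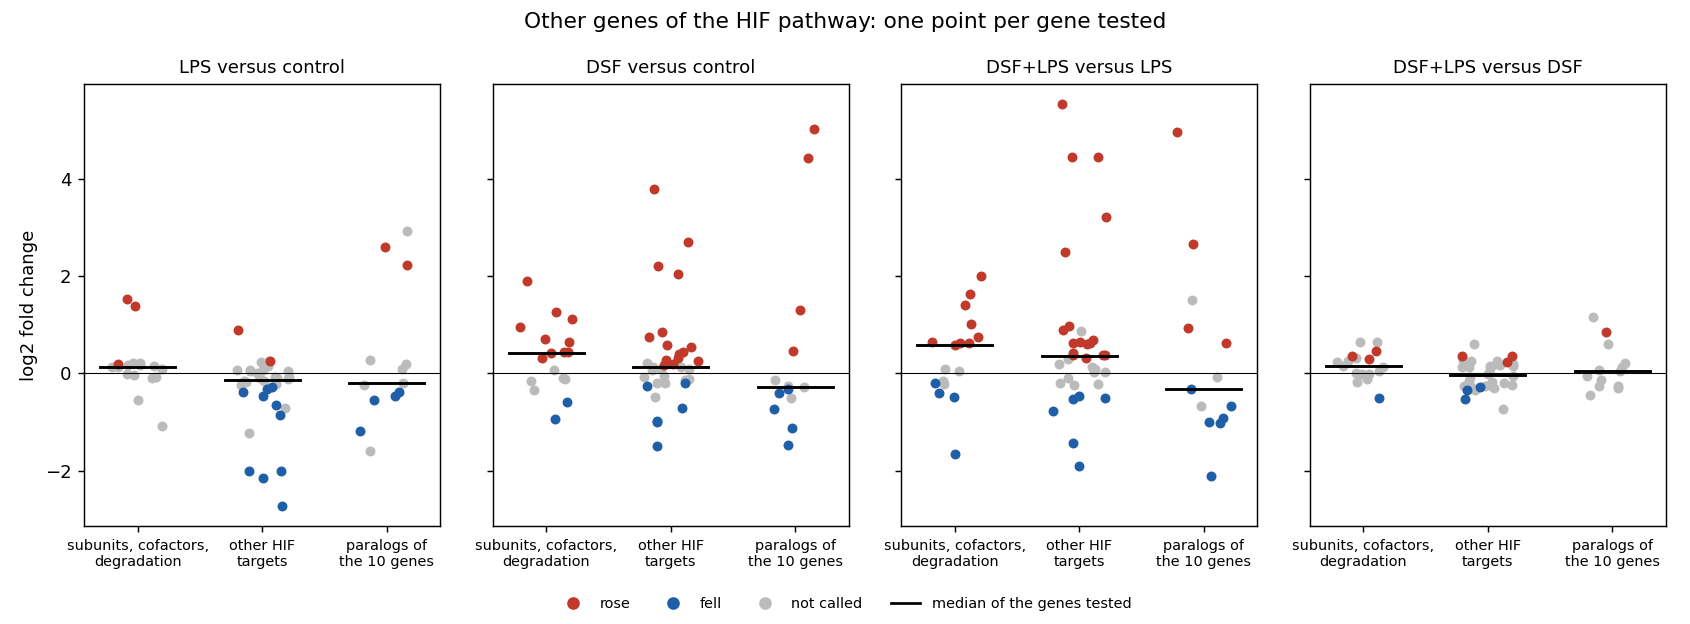
Log2 fold change (vertical axis) of each tested gene of 3 further lists in 4 comparisons; points are genes, coloured by whether they rose, fell or were not called, and lines are the medians of the genes tested. Among other HIF targets the falls outnumber the rises with LPS (10 and 2), and the rises outnumber the falls with DSF+LPS against LPS (17 and 6). Over all genes 15.2% rose and 13.8% fell with LPS, and 33.7% rose and 31.6% fell with DSF+LPS against LPS.

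Of 17 paralogs of the 10 genes, 13 were tested. LPS raised 2 and lowered 4, and DSF raised 4 and lowered 5. DSF+LPS against LPS raised 4 and lowered 6, and DSF+LPS against DSF raised 1 and lowered none. Over all genes tested, the shares called were 29.0%, 58.1%, 65.3% and 12.1% in that order. Slc2a6, a lysosomal hexose transporter gene, had 84.0 ± 2.6 CPM with DSF+LPS, 46.7 ± 0.0028 CPM with DSF, 363 ± 28 CPM with LPS and 77.5 ± 1.6 CPM in control (SD, n = 2). It rose with LPS (2.23, adjusted p = 1.18e-11) and fell with DSF (-0.73, adjusted p = 1.76e-06), where Slc2a1 rose with both. Pfkfb4 fell with DSF (-1.47, adjusted p = 2.09e-07), where Pfkfb3 rose. Vegfd had 7.03 ± 0.018 CPM with DSF+LPS and 6.43 ± 0.70 CPM with DSF, against 3 and 6 counts in the LPS libraries and 6 and 2 counts in control, and rose with DSF (5.03, adjusted p = 7.35e-08).

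The genes whose pattern was nearest to that of a member were sought among 9621 genes by the root mean square difference of the 3 log2 fold changes against control (LPS, DSF and DSF+LPS). The candidates were tested genes with a symbol other than a predicted one (Gm or Rik) and a mean of at least 5 CPM. For Hif1a (0.74, -0.74 and -0.98) the nearest were Cdc42ep3, Ccnj and Gtdc1, at differences of 0.07, 0.09 and 0.10. For Vegfa (-0.54, 1.86 and 2.01) they were Nbr1, Brd3os and Ankrd33b, at 0.08, 0.09 and 0.12. For Egln3 (-1.60, 0.53 and -0.80) they were Nrp1, Castor2 and Ssh1, at the wider distances of 0.33, 0.39 and 0.39. Egln3 itself had group means of only 0.506 CPM (LPS) to 2.24 CPM (DSF). Genes as scarce as Egln3 were therefore not candidates, so these distances do not mark its pattern as unusual.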

How the data were processed

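The authors deposited 1 table of raw read counts per gene for the 8 libraries. The submitters' processing notes list GRCm39 and DESeq2 but no role for either. Aligner, counter, annotation and strand handling: not given in the sources used here. Symbols came from GENCODE M21 (GRCm38), which named 52081 of 55414 identifiers, and promoters from RefSeq (GRCm38.p6). Counts were tested with edgeR 4.0.16 (R 4.3.3) by quasi-likelihood in 1 fit of all 8 libraries with a mean per group, TMM scaling and the filterByExpr defaults (minimum count 10, minimum total 15). Calls were made at a Benjamini-Hochberg adjusted p under 0.05 over 16304 genes. The SE of a log2 fold change was taken as its size over the root of F. Alternatives were library size alone, RLE factors, no filter, DESeq2 1.42.0, only the groups compared, leaving out each library, and the replicate number as a block. The scripts were tested on simulated data. Exon lengths are the union of GENCODE M21 exons. The 10 genes, the 3 further lists and the markers were chosen with earlier results of these data known. The naming rule gives the 10 genes, up to 3 called genes of each further list in each direction, and 3 nearest patterns for Hif1a, Vegfa and Egln3; some genes it names are left out, most of them with few counts or a call lost without 1 library.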

Additional observations from a re-analysis of the deposited data

Results flagged for a closer look

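The response to LPS differed with and without DSF, by the interaction term of the edgeR fit, for these genes (LPS response with DSF minus that without, log2 scale). Among the 10 genes it was -0.98 for Hif1a, -0.73 for Slc2a1 and 0.69 for Vegfa.

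Among cofactors and degradation factors it was 0.87 for Epas1, -0.92 for Cited2 and -0.72 for Cul2. Among other HIF targets it was 3.34 for Adm, 2.41 for Ddit4, 1.76 for Bhlhe40, -0.91 for Hk2 and -0.41 for Ero1a. In all, 9 of the 34 tested were called positive and 2 negative, beside 7.58% positive and 12.2% negative over all genes. The 6 positive targets not named lay between 0.36 and 1.27. Among paralogs the interaction was 1.22 for Slc2a8, -1.98 for Vegfc and -1.38 for Slc2a6. The calls of Epas1 and Ero1a were lost when most single libraries were left out, and that of Vegfc when some were. Values were 0.68 for Epas1 without control replicate 2, -0.25 for Ero1a without LPS replicate 2 and -1.59 for Vegfc without DSF replicate 2. With all libraries, Epas1 also lost its call with DESeq2 (adjusted p = 0.0873). Ero1a lost its call with library size alone (edgeR adjusted p = 0.0866) and with RLE factors (0.0557). Groups of 2 libraries are too small to mark single libraries as standing apart.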

How the results depend on the processing

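The counts of called genes among the 10 stayed within 1.5 times under every alternative for LPS against control (6 to 8 when libraries were left out), DSF against control (6 to 7) and DSF+LPS against LPS (5 to 7). For DSF+LPS against DSF, 2 were called, but 4 with library size alone, 4 without a filter, 1 with only the groups compared, and 1 to 5 when libraries were left out. For the interaction the count was 3, and 3 to 5 when libraries were left out. Over all genes, leaving out a library gave 3146 to 5545 calls for LPS against control (4731 with all), 399 to 2406 for DSF+LPS against DSF (1966 with all, 524 with only the groups compared) and 2003 to 3797 for the interaction (3217 with all). The lowest of these came without control replicate 2, DSF replicate 1 and LPS replicate 2. For DSF+LPS against DSF, the calls over all genes were 2654 with library size alone and 2260 without a filter, beside 1966 in the main fit. Among the 10 genes, signs turned only where the value with all libraries was not called: Egln2 for LPS against control was -0.15 with library size alone, -0.019 without a filter, -0.011 with only the groups compared and -0.084 to 0.082 when libraries were left out. Vhl in the interaction was 0.046 with library size alone, 0.0148 with RLE factors, 0.018 without a filter, 0.0155 with DESeq2 and -0.11 to 0.18 when libraries were left out. The range over left-out libraries also crossed 0 for Vhl with DSF against control (-0.067 to 0.22) and with DSF+LPS against DSF (-0.23 to 0.053), for Vegfa with DSF+LPS against DSF (-0.020 to 0.31; its upper value, without DSF+LPS replicate 2, was called) and for Egln3 in the interaction (-0.23 to 1.04). The cause was not tested. With the replicate number as a block, 8, 7, 6, 2 and 3 of the 10 genes were called in the 5 comparisons, and no call among the 10 changed. Libraries with the same number shared little (correlation of their deviations -0.17 to 0.12 across genes). Few counts limit Egln3.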
